A study of Arabidopsis thaliana with 8 samples.

Results

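The cytosines described here are the CHG differentially methylated cytosines (DMCs) of the Arabidopsis chromosome arms, where H stands for A, C or T. They were every listed position on a CHG cytosine of the TAIR10 sequence outside 6 intervals: chromosome 1 from 11.5 to 17.7 Mb, chromosome 2 from 1.1 to 7.2 Mb and from 17.8 to 18.3 Mb, chromosome 3 from 10.3 to 17.3 Mb, chromosome 4 from 1.5 to 6.3 Mb and chromosome 5 from 9.0 to 16.0 Mb. This gave 2843 of the 71531 entries in the 6 lists of the series, on 2466 distinct positions. A further 10383 CHG entries lay in the excluded intervals, and the arms also held 22909 CG and 8408 CHH entries.

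The study asked whether selection had altered DNA methylation in populations that were otherwise nearly uniform in genotype. Bisulfite sequencing, which reads unmethylated cytosines as thymines, was applied to 8 DNA pools of Arabidopsis thaliana, each from 4 plants, harvested as whole above-ground tissue at 25 days. The plants belonged to the recombinant inbred lines CVL39 and CVL125, derived from crosses of Ler with Cvi, and were grown under long days. Per line there was 1 ancestral pool, which had not been selected, and 1 pool from each of landscapes 1, 5 and 6, whose populations had passed through 5 generations of selection and then 2 without. Each list compares 1 selected pool with the ancestral pool of its line, so the 3 lists of a line share that pool, and a difference between lines cannot be told apart from a difference between the 2 ancestral pools. The lists give a position and a p-value, but neither the direction of a change nor a methylation level nor a read depth. Tissue was mixed, so a change in the share of a cell type and a change of methylation within it cannot be told apart, and these lists hold no expression values with which to check the tissue.

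Plants methylate cytosines in the CG, CHG and CHH contexts by separate routes. CHG methylation is kept up mainly by the chromomethylase CMT3, which binds the histone mark H3K9me2, while the histone methyltransferases SUVH4 (also called KYP), SUVH5 and SUVH6 bind methylated DNA and place that mark, so that the 2 marks form a loop. The histone demethylase IBM1 keeps H3K9me2 and CHG methylation out of active genes, and the DNA glycosylase ROS1 removes methylated cytosines. Most CHG methylation in Arabidopsis therefore lies in silent, repeated sequence around the centromeres and in scattered patches of the arms, while gene bodies mainly carry CG methylation. CAG and CTG are the facing strands of 1 site, whereas the strand facing CCG reads CGG, so its outer cytosine has no CHG partner.

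Groups of neighbouring CHG DMCs are shown first, because the results on single loci turn on them. They are 8 of the 10 clusters ranked first by their number of positions (5 per line, ties in genome order), and the windows of AT3G13270 and PANB2 in CVL39 are not printed. They come from the reference annotation's GLR2.3 and GLR2.2 (glutamate receptor-like ion channels, neighbours on chromosome 2), AT1G27580 (an F-box protein gene), AT5G57580 (a calmodulin-binding protein gene) and the pseudogenes AT1G24938, AT1G17275 and AT1G51175. Each is printed 5′ to 3′ on the top strand with 8 bases on either side. A capital C is a listed cytosine, and a capital G lies opposite a listed cytosine of the bottom strand.
GLR2.3 in CVL39, chr2:10518751-10518913, top strand: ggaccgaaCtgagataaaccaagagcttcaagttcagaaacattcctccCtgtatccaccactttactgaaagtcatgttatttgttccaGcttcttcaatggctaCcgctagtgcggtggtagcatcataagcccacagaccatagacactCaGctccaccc
GLR2.2 in CVL125, chr2:10524561-10524777, top strand: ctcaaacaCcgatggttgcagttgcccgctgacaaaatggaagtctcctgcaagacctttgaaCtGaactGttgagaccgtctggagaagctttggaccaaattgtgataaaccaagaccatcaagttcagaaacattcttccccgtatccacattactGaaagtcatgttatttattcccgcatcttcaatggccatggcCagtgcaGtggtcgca
AT1G27580 in CVL39, chr1:9590889-9591021, top strand: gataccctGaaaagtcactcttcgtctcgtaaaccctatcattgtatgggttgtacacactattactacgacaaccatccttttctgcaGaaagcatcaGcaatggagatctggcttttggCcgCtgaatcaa
AT1G27580 in CVL125, chr1:9590873-9591039, top strand: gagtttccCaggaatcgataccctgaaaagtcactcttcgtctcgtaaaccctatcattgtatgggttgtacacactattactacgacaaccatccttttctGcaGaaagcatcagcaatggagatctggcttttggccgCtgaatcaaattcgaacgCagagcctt
AT5G57580 in CVL39, chr5:23315302-23315383, top strand: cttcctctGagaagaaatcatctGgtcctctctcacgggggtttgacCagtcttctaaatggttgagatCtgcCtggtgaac
AT1G24938 in CVL125, chr1:8791408-8791492, top strand: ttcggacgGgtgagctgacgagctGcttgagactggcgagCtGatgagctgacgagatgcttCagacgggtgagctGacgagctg
AT1G17275 in CVL125, chr1:5915084-5915123, top strand: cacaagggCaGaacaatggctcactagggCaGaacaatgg
AT1G51175 in CVL125, chr1:18970100-18970239, top strand: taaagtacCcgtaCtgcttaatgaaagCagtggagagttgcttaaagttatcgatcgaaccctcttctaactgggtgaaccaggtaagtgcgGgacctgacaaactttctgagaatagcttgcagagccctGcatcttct

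A capital C and a capital G that are 2 bases apart (CaG or CtG) mark a site listed on both strands, in the same or different lists of the line. The AT1G24938 window repeated a stretch of 21 bases at an offset of 60 bases, and the AT1G17275 window repeated a stretch of 15 bases at an offset of 21 bases. In the other 6 windows the longest repeated stretch was at most 7 bases.

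Positions listed in all 3 landscapes of a line are the other set on which the results turn. The next 6 are printed on the strand of the call, as 31 bases centred on the called cytosine, with the called trinucleotide in capitals. AOP2 and AOP3 are neighbouring genes for dioxygenases that modify the side chains of glucosinolates, and AT2G36810 and AT4G25010 are protein-coding genes.
AOP2 in CVL39, chr4:1352198-1352228, bottom strand: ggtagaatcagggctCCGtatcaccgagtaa
AOP3 in CVL125, chr4:1344945-1344975, top strand: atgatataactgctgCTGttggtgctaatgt
AT2G36810 in CVL39, chr2:15428115-15428145, bottom strand: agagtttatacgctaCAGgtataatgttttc
AT5G57580 in CVL39, chr5:23315295-23315325, bottom strand: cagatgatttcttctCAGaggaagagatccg
GLR2.3 in CVL125, chr2:10519300-10519330, bottom strand: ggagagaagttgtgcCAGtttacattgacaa
AT4G25010 in CVL125, chr4:12854719-12854749, top strand: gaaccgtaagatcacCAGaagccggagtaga

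The first question was how often CHG cytosines of the arms were listed at all. In CVL39, 494, 502 and 561 CHG cytosines were listed in landscapes 1, 5 and 6, which is 0.0108%, 0.0109% and 0.0122% of the 4584863 CHG cytosines of the reference arms. In CVL125 the lists held 489, 467 and 330, or 0.0107%, 0.0102% and 0.00720%. The union of the 3 lists covered 0.0305% of the arm CHG cytosines in CVL39 (1398 positions) and 0.0243% in CVL125 (1114 positions). These shares refer to all cytosines of the reference and not to those that had enough reads to be tested, which are not known. The mean count was 519 ± 36.6 (SD, n = 3) in CVL39 and 429 ± 86.2 (SD, n = 3) in CVL125, with every CVL39 list above every CVL125 list (two-sided exact permutation test, p = 0.1, the smallest that 3 against 3 can give, adjusted p = 0.7 over 7 line comparisons). The lowest count, 330 in CVL125 landscape 6, came with the lowest number of arm CG calls (1835 against 3608 to 4969 in the others), and without it the CVL125 lists held 467 and 489.

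CHG calls made up a small part of the arm DMCs. Across landscapes 1, 5 and 6 they took 9.47%, 8.19% and 9.11% of them in CVL39, and 7.91%, 6.26% and 10.9% in CVL125, whereas 14.5% of arm cytosines are CHG. The lines overlapped in this share (8.93% ± 0.66 against 8.36% ± 2.36, SD, n = 3, exact permutation p = 0.7, adjusted p = 0.8). The p-values of CHG calls were also weaker than those of CG calls. Their medians lay between 0.0276 and 0.0308, and 8.18% to 11.9% of CHG calls had a p of at most 0.005, against 15.6% to 31.1% of CG calls. This share was lower in CHG than in CG in 6 of 6 lists (10.9% ± 1.42 against 26.5% ± 5.64, SD, n = 6, two-sided exact sign-flip test over the lists, p = 0.03125, the smallest that 6 lists can give, adjusted p = 0.0361 over 15 comparisons). Since 3 lists at a time rest on the same ancestral pool, the 6 lists are not fully independent in such tests. The 15 comparisons were also chosen after the values were seen, so their p-values describe the agreement between lists only. CHG and CHH did not differ in it beyond the spread between lists (exact p = 0.344, mean difference of -4.01 percentage points).

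CHG was the context with the steepest contrast between the arms and the excluded intervals. Listed CHG cytosines per 100000 of the reference numbered 10.8, 10.9 and 12.2 in the arms of CVL39 and 10.7, 10.2 and 7.20 in those of CVL125. In the excluded intervals they numbered 121, 127 and 135 in CVL39 and 107, 109 and 89.1 in CVL125. The rate was therefore 9.99 to 12.4 times higher there, against 0.978 to 1.33 times for CG and 4.38 to 7.16 times for CHH. The ratio was higher in CHG than in either other context in 6 of 6 lists (exact sign-flip p = 0.03125, adjusted p = 0.0361 for each).

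Within the arms the rate fell with distance from the pericentromeric intervals. Up to 1 Mb away, 12.5 to 20.1 CHG cytosines per 100000 were listed, and from 1 to 2 Mb 17.7 to 22.8. Beyond 8 Mb the rate was 2.32 to 7.20, below both of the nearest bins in each of the 6 lists. The decline was not smooth: in each of the 6 lists the bin from 2 to 3 Mb held fewer calls per cytosine (6.70 to 13.4) than that from 3 to 4 Mb (10.8 to 17.8). CG rates were 52.2 to 134 per 100000 up to 1 Mb away and 39.3 to 111 beyond 8 Mb, and the farthest bin was above the nearest in 2 of the 6 lists. The short left arm of chromosome 2 had the highest CHG rate of the arms in CVL39 and in CVL125, from 26.0 to 33.4 per 100000, and rests on 14 to 18 calls a list.

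**Figure D1:**
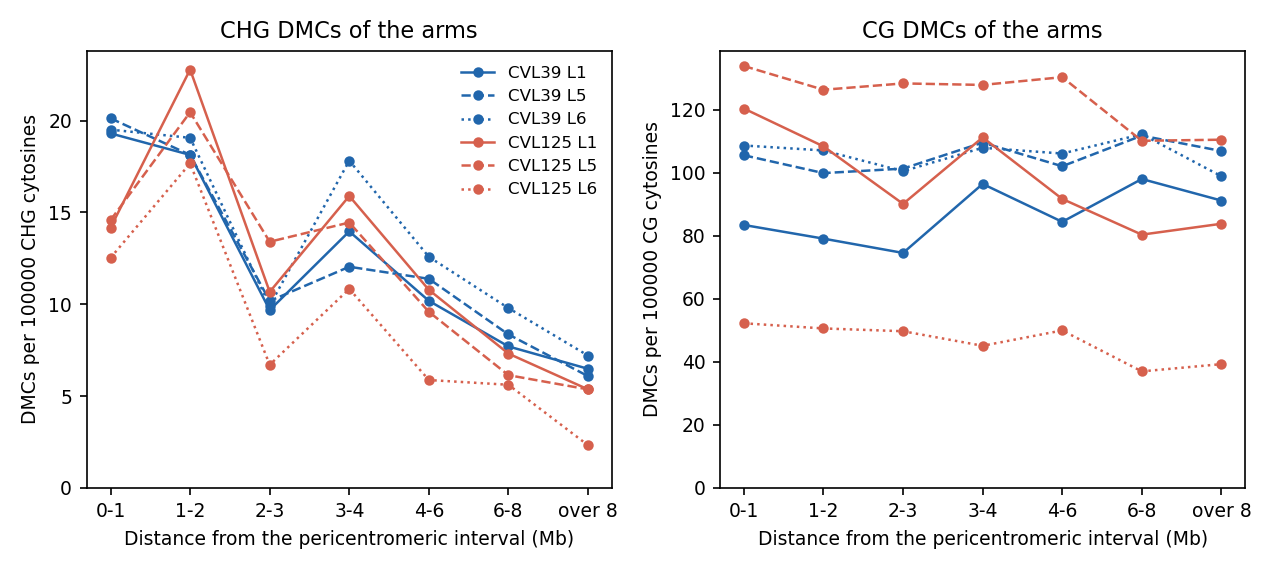
Differentially methylated cytosines per 100000 reference cytosines (vertical axes) in bins of distance from the pericentromeric interval of the chromosome (horizontal axes, Mb) for CHG on the left and CG on the right, with 1 line per selected pool. CHG rates fell from 12.5 to 20.1 in the nearest bin to 2.32 to 7.20 in the bin beyond 8 Mb, while CG rates went from 52.2 to 134 to 39.3 to 111.

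The trinucleotides of the CHG calls were close to those of the reference. CAG made up 38.4% to 45.2% of the arm CHG calls and CTG 35.7% to 42.1%, where the reference arms have 40.6% of each. CCG made up 15.3% to 22.3%, where the reference has 18.7%. By list, the CCG share in CVL39 was 19.8%, 19.1% and 15.3%, and in CVL125 it was 22.3%, 17.3% and 19.1%. The reference share lay inside the exact 95% Clopper-Pearson interval in 5 lists and just above it in CVL39 landscape 6 (12.4% to 18.6%). Such intervals cover counting error only. The lines did not separate in the CCG share (18.1% ± 2.42 against 19.6% ± 2.51, SD, n = 3, exact permutation p = 0.6, adjusted p = 0.8).

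**Figure D2:**
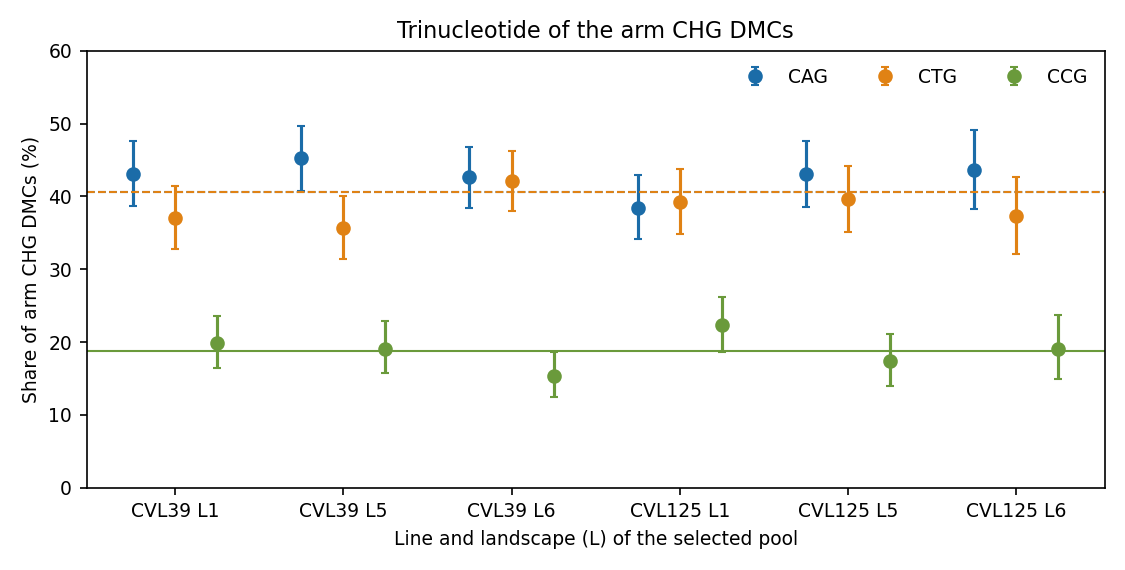
Share of the arm CHG calls of each selected pool (vertical axis, percent) that fell on CAG, CTG and CCG, with exact 95% Clopper-Pearson intervals. The horizontal lines are the shares in the reference arms, 40.6% for both CAG and CTG (broken) and 18.7% for CCG (solid), and most intervals include them.

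The arms and the excluded intervals differed in CCG. Per reference cytosine, CCG was listed 0.785 to 1.24 times as often as CAG and CTG in the arms, and 0.712 to 0.844 times as often in the excluded intervals. The arm ratio was the higher one in 6 of 6 lists (1.01 ± 0.155 against 0.779 ± 0.0536, SD, n = 6, exact sign-flip p = 0.03125, adjusted p = 0.0361). CCG is usually the least methylated CHG trinucleotide in Arabidopsis. Among distinct arm positions CCG made up 17.4% of those in protein-coding genes and 21.7% of those in pseudogenes, where the reference has 18.2% and 20.1%, and both reference values lay inside the intervals of these shares.

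The bases around the calls were richer in G than the reference. Over the 2466 positions, G stood 1 base upstream of the cytosine in 25.3% (reference 20.6%), 2 bases upstream in 19.8% (15.1%) and 4 bases downstream in 24.0% (18.5%). In pseudogenes G was 2 bases upstream in 23.9% (interval 20.8% to 27.2%, reference 17.6%) and 1 base upstream in 29.97% (26.6% to 33.5%, reference 22.1%). In protein-coding genes the excess was clearest 4 bases downstream, with 25.7% (23.3% to 28.2%) against 19.2%. The median GC content of the 101 bases around a call was 42.6% or 43.6% in all lists, against 39.6% around all arm CHG cytosines. Base composition thus moved with these flanks, and its part in them was not tested. Top-strand cytosines made up 44.2% to 52.7% of the calls.

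The strands of a CHG site were seldom listed together. Of the CAG and CTG calls, 0.505% and 0.493% in CVL39 landscapes 1 and 5 and 0.526% and 0.518% in CVL125 landscapes 1 and 5 had the facing cytosine in the same list, which is 1 site each. In both landscape 6 lists there were 0 such calls, of 475 in CVL39 and 267 in CVL125, and the upper Clopper-Pearson limits were 0.774% and 1.37%. The corresponding share for CG sites was 1.63% to 4.79% and lay above that of CHG in 6 of 6 lists (exact sign-flip p = 0.03125, adjusted p = 0.0361). Over the union of a line 1.05% of CAG and CTG positions in CVL39 and 1.11% in CVL125 had a listed partner, against 7.09% and 5.83% for CG. Arm CG cytosines were listed more often to begin with, at 44.8 to 121 per 100000 in a list against 7.20 to 12.2 for CHG. The part of this rate in the difference between the contexts was not tested. Read depth decides whether either strand could be called. It is not given for these data, which the study calls low-coverage, and its part was not tested. The next cytosine of CCG, which is in the CG context, was itself listed for 6.25% to 11.1% of the CCG calls of a list. Of all arm CG cytosines, 44.8 to 121 per 100000 were in a list.

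Where the CHG calls lay set them apart from CG calls. Pseudogenes of the annotation held 25.3% to 35.5% of the arm CHG calls, although they contain 2.52% of the arm CHG cytosines. By list it was 30.6%, 25.3% and 26.9% for CVL39, then 26.8%, 27.8% and 35.5% for CVL125. CG calls were in pseudogenes for 2.17% to 3.38% and CHH calls for 10.3% to 21.3%. The CHG share was the highest in 6 of 6 lists (28.8% ± 3.69 against 2.55% ± 0.427 for CG and 17.2% ± 5.05 for CHH, SD, n = 6, exact sign-flip p = 0.03125 and adjusted p = 0.0361 for each). Protein-coding genes held 42.1% to 52.9% of CHG calls, against 78.3% of the arm CHG cytosines, 92.5% to 94.1% of CG calls and 55.6% to 68.8% of CHH calls. CHG was the lowest of the contexts in this share in 6 of 6 lists (50.04% ± 4.43 against 93.4% ± 0.592 for CG and 60.2% ± 6.35 for CHH, SD, n = 6, exact sign-flip p = 0.03125, adjusted p = 0.0361 for each). Among the calls with a p of at most 0.005 the difference from CHH in genes had an exact sign-flip p of 0.09375. The lines overlapped in both shares, with any overlap of a pseudogene counted for the former (28.0% ± 3.02 in CVL39 against 30.9% ± 4.77 in CVL125 and 50.9% ± 3.07 against 49.2% ± 6.12 for genes, SD, n = 3, exact permutation p = 0.5 and p = 0.8, adjusted p = 0.8 for each).

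**Figure D3:**
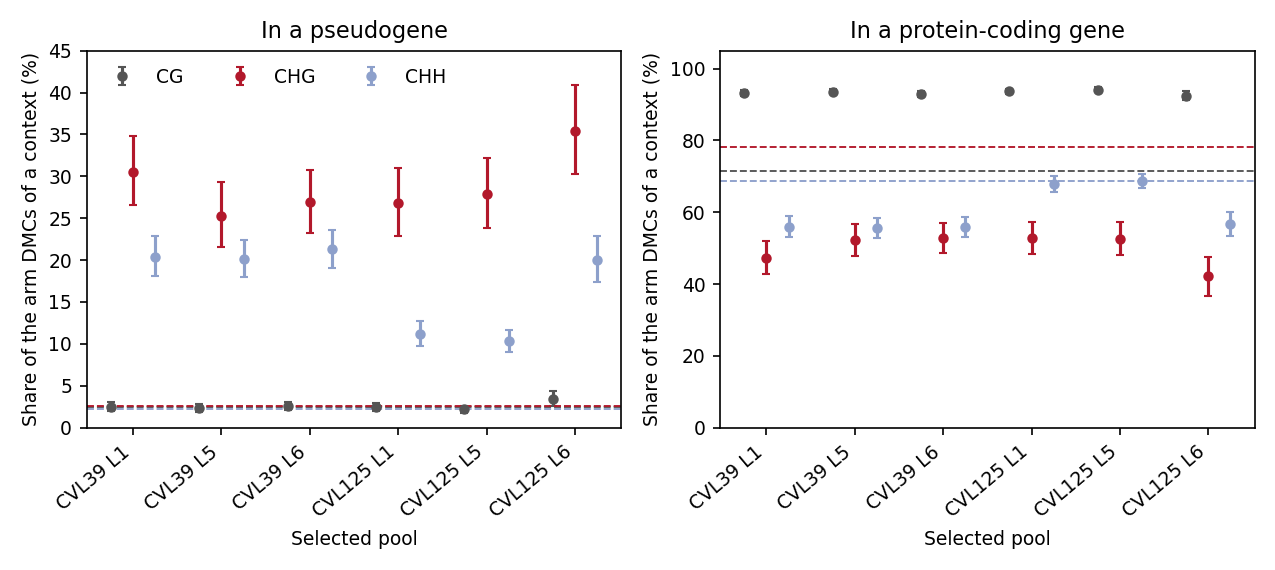
Share of the arm calls in each context (vertical axes, percent, CG grey, CHG red, CHH blue) that lay in a pseudogene (left) or in a protein-coding gene (right) in each selected pool, with exact 95% Clopper-Pearson intervals and broken lines for the share of the reference cytosines. CHG shares lay between 25.3% and 35.5% in pseudogenes and between 42.1% and 52.9% in protein-coding genes, away from the CG shares in all 6 pools.

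As rates, 101 to 131 CHG cytosines per 100000 were listed in pseudogenes, which is near the 89.1 to 135 of the excluded intervals. In protein-coding genes the rate was 3.87 to 8.28, within 1 kb of such a gene 6.85 to 10.4, and further from genes 10.5 to 18.3. Genic CHG calls were exonic in 86.2% to 91.9% (reference 78.5%) and coding in 78.5% to 81.3% (reference 64.6%). CG calls in genes were exonic more often still, in 92.5% to 94.8% (exact sign-flip p = 0.03125, adjusted p = 0.0361). The position along the gene also differed. With each gene cut into 3 equal parts, the part next to the start held 26.0% to 31.2% of genic CHG calls and 12.5% to 14.2% of genic CG calls, with CHG higher in 6 of 6 lists (exact sign-flip p = 0.03125, adjusted p = 0.0361). The shares of the reference cytosines in these parts were not computed. The comparison is therefore between the contexts and shows no preference of CHG calls for gene starts.

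Reads from repeated sequence cannot be placed with certainty. The 31 bases centred on the call occurred in more than 1 place of the genome for 6.06% to 9.21% of CHG calls, against 3.52% of arm CHG cytosines and 0.885% to 1.51% of CG calls (6 of 6 lists higher than CG, exact sign-flip p = 0.03125, adjusted p = 0.0361). CHH calls had the highest share, 7.61% to 27.5%, in 6 of 6 lists above CHG (exact sign-flip p = 0.03125, adjusted p = 0.0361). Calls in such sequence may belong to another copy, and their part in the share in pseudogenes was not tested. Similar but not identical copies are not counted in these shares, although the study's alignment tolerated mismatches.

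Most CHG calls of a list had no other within 100 bp, as for 414 of 494 in CVL39 landscape 1. The median distance between neighbours in a list was 66913 to 89063 bp, and 5.23% to 9.09% of the distances were at most 100 bp. The share for as many positions spread over the 87.5 Mb of the arms was not computed. These values therefore do not show a lack of grouping. Groups of at least 3 calls with gaps of at most 100 bp took in 4.05%, 1.39% and 3.21% of the calls in CVL39 and 4.70%, 2.14% and 3.03% in CVL125, as 2 to 7 clusters a list. The lines did not separate (exact permutation p = 0.8, adjusted p = 0.8). When the 3 lists of a line were merged, CVL39 had 28 clusters with 101 of its 1398 positions (7.22%) and CVL125 had 30 clusters with 107 of its 1114 (9.61%). Calls of 1 landscape alone made up 5 of the CVL39 clusters and 3 of the CVL125 clusters. Of the clusters, 7 in CVL39 and 14 in CVL125 also held a CHG position of the other line. CHG calls had a CHH call of the same list within 50 bp in 13.0% to 18.6% and a CG call in 6.77% to 11.1%. The same shares over all arm CHG cytosines were not computed, so these are descriptions only.

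The most populous cluster of CVL39 lay in GLR2.3, on chromosome 2 from 10518759 to 10518905, with 6 positions. Landscapes 1, 5 and 6 contributed 2, 3 and 1 of them, with no overlap between the lists. That of CVL125 lay in GLR2.2, from 10524569 to 10524769, with 7 positions, to which the landscapes contributed 5, 2 and 1. Each window also held 3 CHH positions and no CG position of its line.

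AT1G27580 was the only locus whose cluster was among the 5 most populous of both lines. In CVL39 it held 5 positions between 9590897 and 9591013 of chromosome 1, listed 4, 1 and 2 times in the 3 landscapes. In CVL125 it held 5 positions between 9590881 and 9591031, listed 2, 2 and 1 times. The remaining named clusters held at most 1 CHG position of the other line. They were AT3G13270, a pseudogene, and PANB2, which encodes an enzyme of pantothenate synthesis, with 5 positions each in CVL39, AT5G57580 with 5 positions in 66 bp in CVL39, and AT1G24938 (6 positions), AT1G51175 (5) and AT1G17275 (4) in CVL125. In AT5G57580 no CG or CHH call lay inside the cluster and CVL125 had none of any context in the gene.

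Gene by gene, CHG calls were spread thinly. Of the 23898 protein-coding genes of the arms, 546 carried at least 1 CHG position in CVL39 (2.28%) and 434 in CVL125 (1.82%), and 463 and 371 of these had 1 position only. For CG the shares of genes were 22.0% and 20.9%, and for CHH 4.61% and 4.07%. Of the 1063 pseudogenes, 147 (13.8%) carried a CHG position in CVL39 and 134 (12.6%) in CVL125.

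Loci with CHG calls tended to carry calls of the other contexts too. Of the protein-coding genes with a CHG position, 46.5% in CVL39 and 43.3% in CVL125 also had a CG position, against the 22.0% and 20.9% of all genes, and 30.04% and 25.6% had a CHH position, against 4.61% and 4.07%. Of those with at least 3 CHG positions (37 genes in CVL39 and 26 in CVL125), 78.4% and 65.4% had a CG position and 73.0% and 73.1% a CHH position. Length moved with this: genes with a CHG position had a median length of 2681 bp in CVL39 and 2684 bp in CVL125, against 2121 bp for all genes. Among the genes of 3069 bp or longer, CG positions were in 63.9% of CHG genes and 44.7% of all genes in CVL39 and in 54.0% and 43.2% in CVL125. For CHH the shares among these were 27.5% against 7.51% and 26.1% against 6.46%. Of the pseudogenes with at least 3 CHG positions (53 in CVL39 and 44 in CVL125), 94.3% and 95.5% carried CHH, against 15.1% and 14.5% of all pseudogenes, and 71.7% and 59.1% carried CG, against 13.7% and 12.8%. Calls of a locus share reads, so these shares are descriptions and were not tested.

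**Figure D4:**
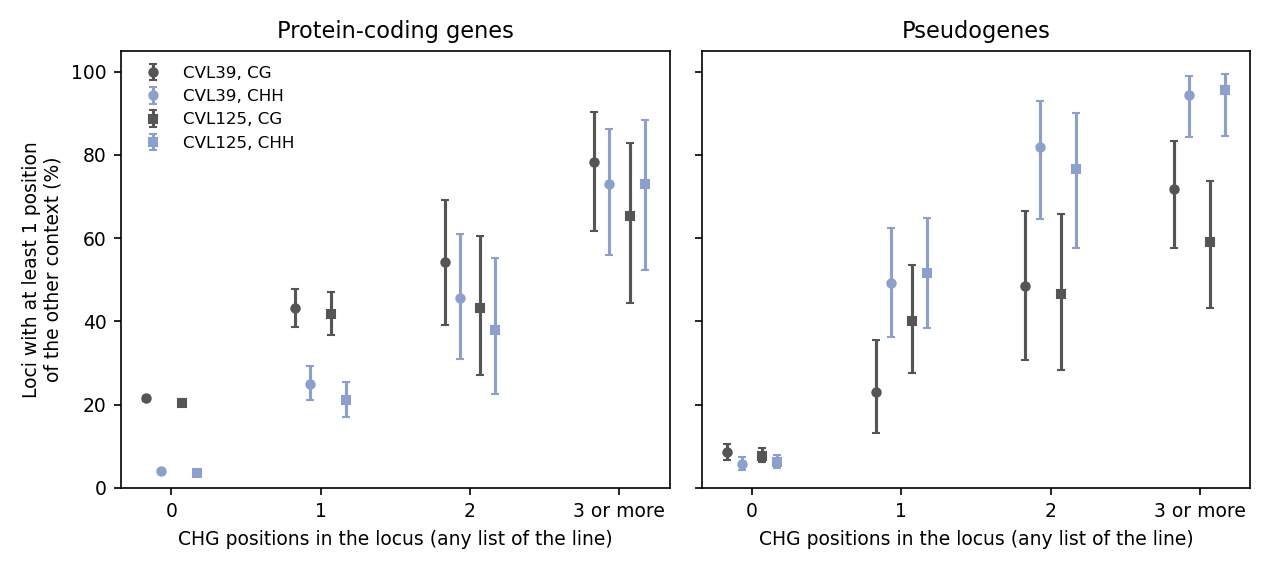
Share of loci (vertical axes, percent) with at least 1 CG (grey) or CHH (blue) position, by the number of CHG positions in the locus (horizontal axes) over the lists of CVL39 (circles) and CVL125 (squares), for protein-coding genes on the left and pseudogenes on the right, with exact 95% Clopper-Pearson intervals. Genes with no CHG position had CHH positions in 4.02% (CVL39) and 3.67% (CVL125), and genes with 3 or more in 73.0% and 73.1%.

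A few loci held many positions. The pseudogene AT1G51175 (chromosome 1, 18965955 to 18971576) had 4, 8 and 7 CHG calls in CVL39 and 7, 5 and 8 in CVL125. GLR2.3 (chromosome 2, 10516780 to 10520684) had 6, 5 and 6 in CVL39 and 8, 5 and 5 in CVL125. GLR2.2 (10522548 to 10526059) had 1, 5 and 8 in CVL39 and 7, 6 and 5 in CVL125. The groups overlapped in all 3 loci.

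The pair of glutamate receptor genes stood out from its surroundings. Over both lines 29 of the 212 CHG cytosines of GLR2.3 and 28 of the 216 of GLR2.2 were listed. The 10 loci before them and the 8 after them, on the same chromosome, had at most 4 CHG positions in a line. GLR2.3 also carried 7 CG and 29 CHH positions in CVL39 and 11 and 17 in CVL125, and GLR2.2 carried 10 and 36 in CVL39 and 7 and 24 in CVL125. Of their CHG positions, 2 in each gene were seen in both lines. None of the 29 in GLR2.3 and 1 of the 28 in GLR2.2 had a 31-base surrounding that occurs elsewhere in the reference. That match was exact, whereas the study's alignment tolerated mismatches. The printed windows of the 2 genes share stretches of sequence, and misplacement of reads between the genes was not tested.

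Some pseudogenes had CHG calls in all landscapes of 1 line and none in the other. AT1G30340 had 7, 4 and 3 CHG calls in CVL39 and 0 in all 3 lists of CVL125, where it had 7 CHH positions. AT5G53775 had 5, 2 and 3 in CVL39, where it had 10 distinct positions, and no call of any context in CVL125. AT3G25450 had 2, 4 and 3 in CVL39 and 0 in CVL125, and AT1G12720 had 0 in CVL39 and 3, 2 and 2 in CVL125. Others had CHG positions in both lines. AT1G10160 had 13 positions in CVL39 and 4 in CVL125, AT5G12085 9 and 2, AT4G16870 9 and 14, AT5G43800 5 and 12, AT2G01034 5 and 9, and AT1G20390 10 and 11. Of these, AT1G10160, AT5G43800, AT2G01034 and AT1G20390 had CHG calls in all 6 lists. Of the 13 distinct positions in AT2G01034, 5 lay in repeated 31-base sequence, as did 4 of 12 in AT1G24938. AT1G27560, a pseudogene related to F-box genes, had 3, 0 and 1 CHG calls in CVL39 and 6, 3 and 4 in CVL125, and with its neighbour AT1G27550 it held 5 of the 17 positions that CVL125 listed in all 3 landscapes. These loci were chosen for their numbers of positions, so the counts are given with no test, and whether the parents differ in sequence there was not examined.

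**Figure D5:**
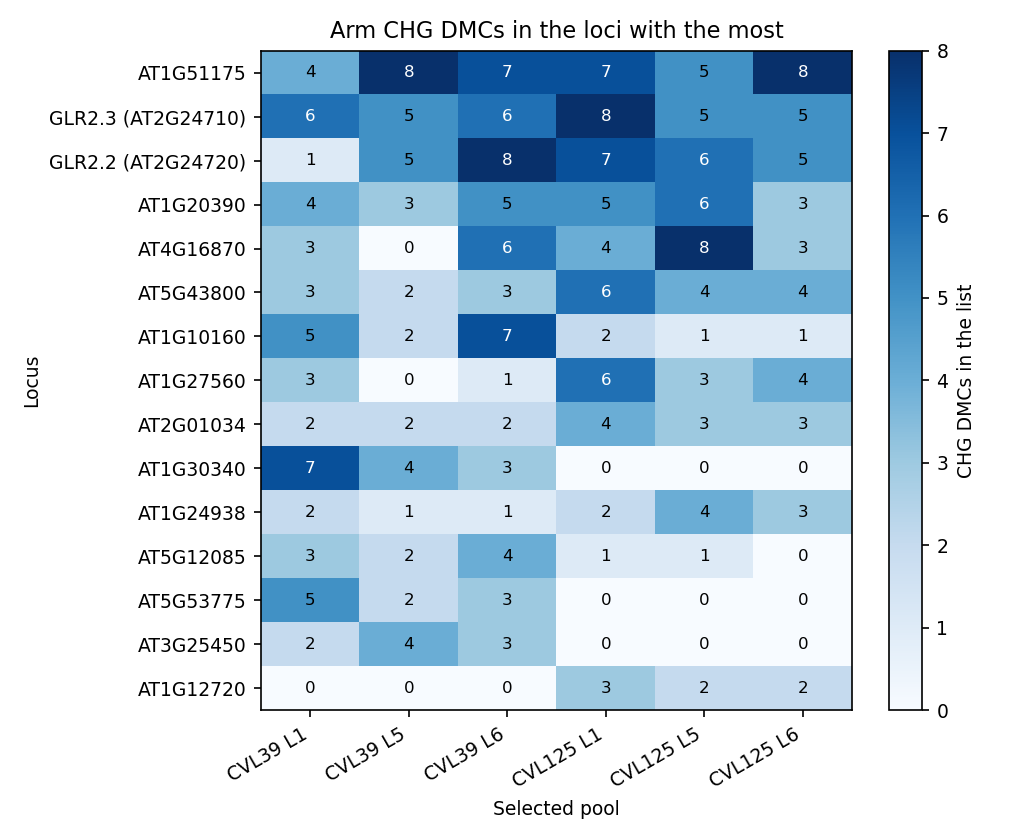
Number of arm CHG calls (colour and printed count) in 15 loci (rows) and 6 selected pools (columns), for the loci with the most positions in either line. AT1G51175, GLR2.3 and GLR2.2 had calls in all 6 pools, while AT1G30340, AT5G53775 and AT3G25450 had calls in CVL39 pools and none in CVL125 pools.

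Of a list of 14 genes of the DNA methylation machinery and its regulators, 3 carried a CHG call, each in 1 line. In CVL39, SUVH4 had 1 CHG position and 2 CG positions, and IBM1 likewise had 1 and 2. In CVL125, ROS1 (DML1 in the annotation) had 1 CHG and 4 CG positions. That is 2 of 14 loci with CHG in CVL39 and 1 of 14 in CVL125, where 2.28% and 1.82% of all genes had one. CG positions were in 7 of the 14 in CVL39 and 10 of the 14 in CVL125, where 22.0% and 20.9% of all genes had one. The listed genes are long, however, at 3421 to 9422 bp. Among all genes of 3069 bp or longer, 44.7% in CVL39 and 43.2% in CVL125 had a CG position. CHG positions were in 233 and 176 of those 5975 genes. The part of length was not tested. CMT3 carried 1 CG position in CVL125 and SUVH5 none of any context. Of 12 loci known for epialleles, MRD1 had 1 CHG position in either line and PAI3, of tryptophan synthesis, 1 in CVL125, and the other 10, among them FWA and SUP, had none. AT2G25050, an actin-binding formin gene picked from the study's text and so not independent of its samples, had 1, 3 and 2 CHG calls in CVL39 and 2, 2 and 1 in CVL125.

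Most CHG positions of a line were in the list of 1 landscape only. Of the 1398 CVL39 positions, 1253 were in 1 list, 131 in 2 and 14 in all 3. Of the 1114 CVL125 positions, 959 were in 1, 138 in 2 and 17 in all 3. Between 2 lists of a line the shared positions made up 9.80% to 11.9% of a list in CVL39 and 10.4% to 17.6% in CVL125. Of all arm CHG cytosines, 0.00720% to 0.0122% were in a list, a share that is lowered by cytosines that could not be tested. The lists share their ancestral pool, so a chance deviation of that pool recurs in all of them, and these shares carry no test. The smallest p was at most 0.005 for 9 of the 14 positions in CVL39 and 4 of the 17 in CVL125.

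AOP2 had the most firmly supported recurrent position. Its CCG cytosine on the bottom strand at position 1352213 of chromosome 4 had p-values of 9.61e-06, 0.000159 and 0.000464 in the 3 CVL39 lists (the authors' unadjusted tests) and was in no CVL125 list. The reference annotates AOP2 as a pseudogene. Its neighbour AOP3 had a CTG cytosine, at 1344960, in all CVL125 lists, with p-values of 0.00837, 0.0148 and 0.0419, and in no CVL39 list. The positions in AOP2 and AOP3 lie less than 1 Mb from the excluded interval of chromosome 4. Neither remains when the arms are narrowed by 1 Mb. In CVL39, the CAG cytosine of AT2G36810 at 15428130 of chromosome 2 had 0.00149, 0.00173 and 0.00433, and that of AT5G57580 at 23315310 of chromosome 5 had 0.000777, 0.00699 and 0.000777. In CVL125, the CAG cytosine of AT4G25010 at 12854734 of chromosome 4 had 0.0101, 0.00466 and 0.0101. AOP2, AOP3, AT2G36810 and AT4G25010 were chosen after these values were seen.

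Between the lines, which have separate ancestral pools, 46 positions were shared. That is 3.29% of the CVL39 and 4.13% of the CVL125 positions, where 0.0243% and 0.0305% of all arm CHG cytosines were listed in the other line. The reference includes cytosines that could not be tested, which lowers the latter shares. By trinucleotide, 17 CAG, 23 CTG and 6 CCG positions were shared. Of the 46, 24 lay in protein-coding genes, 14 in pseudogenes and 4 in repeated 31-base sequence. No position was in more than 4 lists, and those in 4 lay in AT1G27560, GLR2.3, AT3G08600 and AT5G43800.

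Recurrence was also counted by locus, a description with no test. A locus holds many CHG cytosines, so its shares are not comparable with those of positions, and the part of locus length was not tested. Of the protein-coding genes with CHG positions, 90 were found in both lines, 16.5% of those in CVL39 and 20.7% of those in CVL125, where 1.82% and 2.28% of all genes had a position in the other line. Of the pseudogenes, 88 were found in both lines, 59.9% and 65.7%, where the shares of all pseudogenes were 12.6% and 13.8%. Calls in all 6 lists were found in 16 loci. Of these, 7 were protein-coding genes: AT1G27580, GLR2.3, GLR2.2, AT2G25050, ABCC15, AOP3 and AT5G07570. ABCC15, annotated as a multidrug resistance-associated protein, had 1, 3 and 1 CHG calls in CVL39 and 2, 1 and 1 in CVL125, and AOP3 had 3, 1 and 2 and 2, 1 and 2. The other 9 were pseudogenes, AT1G51175, AT1G20390 and AT5G43800 among them. ABCC15 and AT5G07570 were named for this recurrence, after it was seen.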

How the data were processed

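Per the labels and the methods of the study, bisulfite-converted DNA of 8 pools was sequenced on the SOLiD platform and aligned with SOCS to Ler and Cvi sequences built from TAIR10. The deposited lists give, for each cytosine called between a selected pool and its ancestral pool, a position and an unadjusted p-value, at most 0.05. The deposited position is a coordinate with no normalization. The test, the coverage minimum and the tested cytosines are not given in the sources used here. The study describes its SOLiD data as a low-coverage pilot, and the depth at each cytosine is not known.

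Positions were read as counted from 0 (99.4% to 99.6% of nuclear positions of a list then fell on a cytosine) and are printed counted from 1. Contexts came from TAIR10, and parental base differences were not used. Left out were 591 organelle entries and 376 nuclear entries on no cytosine, 168 of them in the arms. Genes are those of the RefSeq annotation. The design named transposable elements, but the annotation used holds none, so the 1063 arm pseudogenes took their place.

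The members and the gene lists were chosen with earlier results of these data known. Named loci were the 10 with the most arm CHG positions per line, those with at least 3 positions listed in all 3 landscapes, the 5 most populous clusters per line and the fixed lists. Lines were compared over populations with two-sided exact permutation tests and Benjamini-Hochberg adjustment over 7 comparisons. Contexts were compared within lists by exact sign-flip tests, 15 in number and chosen after the values were seen. The tests were tried on simulated data. The alternatives were a p of at most 0.005, arms narrowed by 1 Mb, other cluster gaps (50 and 200 bp) and sizes, longer pseudogenes only, genes with 1 kb flanks, matching within 50 bp, strands merged, a replicate block by landscape and the omission of landscapes or single lists. Python 3.11.15, numpy 2.4.6, pandas 2.3.3, scipy 1.17.1 and matplotlib 3.10.9 were used.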

Additional observations from a re-analysis of the deposited data

Results flagged for a closer look

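Chloroplast DNA, which is taken to be free of cytosine methylation, also had CHG entries, outside the comparisons above. There were 8 in CVL39 landscape 5, 9 in CVL125 landscape 1 and 11 in CVL125 landscape 5, above the 3 counts that a count of 0 allows. The other lists held 2 (CVL39 landscape 1), 3 (CVL39 landscape 6) and 1 (CVL125 landscape 6). Per 100000 chloroplast CHG cytosines, of which there are 7665, this was 13.0 to 144, above the rate of the nuclear arms in each of the 6 lists. List by list in the order of landscapes 1, 5 and 6, it was 26.1, 104 and 39.1 in CVL39 (arms 10.8, 10.9 and 12.2) and 117, 144 and 13.0 in CVL125 (arms 10.7, 10.2 and 7.20). In the excluded nuclear intervals the rate was 89.1 to 135. Read depth, and with it the share of cytosines that could be tested, may differ between chloroplast and nucleus and is not known. The level at which calls arise without a change was not tested.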

How the results depend on the processing

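The lists hold neither depth nor direction, so no alternative could address either, and exact tests between lines cannot go below p = 0.1. Single lists were omitted after the data were seen. All line differences are CVL39 minus CVL125 in percentage points, and none passed its test in any setting. The CVL39 excess in counts (90.3 calls) kept its sign, at 20 to 133 when landscapes or lists were omitted, with 41 without CVL125 landscape 6. The ranges that follow are those with landscapes or lists omitted. The difference in the share of CHG among arm calls (0.563) ranged from -0.487 to 1.84 and was reversed without landscape 5 (-0.121) and without CVL125 landscape 5. That in the CCG share (-1.48) reversed to 3.54 at p of at most 0.005. That in pseudogenes (-2.84) ranged from -6.14 to 0.287, the latter without landscape 6, and was -6.46 at p of at most 0.005. That in gene bodies (1.71) ranged from -2.84 (without landscape 6) to 5.27, and was -1.82 without CVL125 landscape 6, -1.35 at p of at most 0.005 and -0.0791 with 1 kb flanks. That in clusters (-0.408) ranged from -0.990 to 0.337, reversed without CVL39 landscape 5 and without CVL125 landscape 1 (0.298), and was -1.82 at p of at most 0.005 and -1.66 with gaps of up to 200 bp. That in both-strand calls (-0.0156) was 0 at p of at most 0.005 and ranged from -0.190 to 0.151, reversed without CVL39 landscape 6, CVL125 landscape 1 (0.0735) or CVL125 landscape 5 (0.0694).

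CHG positions in all 3 landscapes numbered 14 in CVL39 and 17 in CVL125, and 2 and 0 at p of at most 0.005. They were 9 in CVL39 with narrowed arms, and 35 and 43 when matched within 50 bp. With 1 landscape omitted, positions in both of the others numbered 55 to 59 in CVL39 and 51 to 82 in CVL125. Positions in both lines (46) numbered 0 at p of at most 0.005, 153 within 50 bp and 16 to 30 with a landscape omitted. Genes with CHG that carried CG fell from 46.5% to 20.0% (CVL39) and from 43.3% to 23.4% (CVL125) at p of at most 0.005, and those with CHH from 30.04% to 13.8% and from 25.6% to 20.3%. Omitting a landscape gave 37.2% to 42.5% and 35.8% to 39.7% for CG and 25.4% to 28.1% and 22.1% to 24.1% for CHH. These settings by construction hold fewer calls or fewer lists, except for matching within 50 bp.

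Of the 15 comparisons within lists, the 4 of location (pseudogenes and genes, against CG and CHH) were recomputed under alternatives, and all 4 kept their sign. The other 11 were not recomputed. CHG minus CG was 25.1 to 27.2 points in pseudogenes and -44.3 to -41.9 in genes with lists omitted, and CHG minus CHH was 10.4 to 12.9 and -11.5 to -8.93. With 5 or 4 lists the exact p cannot go below 0.0625 or 0.125, so no such value passed 0.05. CHG minus CHH in genes was -11.5 at p of at most 0.005 (exact p = 0.09375).

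Landscape numbers did not pair the lines: deviations in 121 bins correlated at -0.0514, -0.0799 and -0.142 for landscapes 1, 5 and 6. With the landscape as a replicate block the mean difference in counts stayed 90.3 (exact p = 0.25, the smallest possible), and p was 0.5 to 1 for the other 6 comparisons.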
